A study of Nematostella vectensis with 4 samples.

Results

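The 4 gene models described here belong to the starlet sea anemone Nematostella vectensis and carry the names of secreted zinc proteases. They were picked by identifier, as 4 of the 25734 gene rows in the deposited gene table. NVE21084 and NVE23940 are both named HE_PARLI, NVE23939 is named HE_HEMPU and NVE25752 is named NAS13_CAEEL. These names are not unique: HE_PARLI stands on 3 rows, HE_HEMPU on 3 and NAS13_CAEEL on 12, so each model is given by its identifier. A name points to the protein family of a similar protein in another species, and what the sea anemone protein does was not measured.

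Single-cell transcripts were counted in the mesentery (the folds that hang into the gut cavity), the pharynx (the tube between mouth and gut cavity), the tentacles and the body wall of sub-adult polyps aged 5 months. Each tissue gave 1 library, and the labels name no genotype, strain or treatment and no number of animals. The dissected pieces were dissociated with TrypLE Select, a trypsin-like enzyme, and captured with 10x Genomics version 2 chemistry.

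HE_PARLI and HE_HEMPU are the hatching enzymes of the sea urchins Paracentrotus lividus and Hemicentrotus pulcherrimus. They dissolve the fertilization envelope so that the embryo can swim free, and they belong to the matrixins, the family of the matrix metalloproteases. NAS13_CAEEL is a protease of the nematode Caenorhabditis elegans and belongs to the astacins, a separate family named after a digestive enzyme of the crayfish. Both families are metzincins, enzymes that hold a zinc ion in the active site, are made with a propeptide that keeps them inactive, and mostly work outside the cell. By name, 3 of the 4 models are therefore matrixins and 1 is an astacin. In sea anemones, gland cells along the mesenteries and in the pharynx release digestive enzymes onto ingested prey.

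Barcodes with at least 300 UMIs (unique molecular identifiers, which count transcripts) were kept as cells. They numbered 1357 (mesentery), 2804 (pharynx), 1299 (tentacles) and 1652 (body wall), with median depths of 542 to 766 UMIs. Their UMIs summed to between 1563722 and 2755343 per tissue. Levels are UMIs per 1000000 UMIs of a tissue's kept barcodes (CPM). With 1 library per tissue there was no replicate error and no test, and intervals (95%) cover counting error only. Of the kept barcode sequences, 22 occurred in a pair of libraries, and none of the barcodes with 5 or more UMIs of a model was among them (0). They held no UMI of a model (0) but for 2 of the 5 pharynx UMIs of NVE25752, in 1 barcode.

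NVE21084 and NVE25752 were mesentery models, and NVE23939 and NVE23940 were pharynx models. NVE21084 had 1747 UMIs in the mesentery against 1 UMI in the pharynx, with 0 in both the tentacles and the body wall. Its level was 1117 CPM in the mesentery (1065 to 1171) and 0.363 CPM in the pharynx (0.00919 to 2.02), a ratio of 3078 that rested on 1 pharynx UMI (552 to 121655). NVE25752 had 462 UMIs in the mesentery against 5 UMIs in the pharynx, with 1 in the tentacles and 0 in the body wall. Its level was 295 CPM in the mesentery (269 to 324) and 1.81 CPM in the pharynx (0.589 to 4.23), and the mesentery level was 163-fold higher (69.3 to 504). Without barcode sequences kept in more than 1 library, 3 pharynx UMIs remained and the ratio was 271 (92.2 to 1320). For both models nearly all UMIs came from the mesentery, and the intervals of the other 3 tissues overlapped.

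NVE23939 had 0 UMIs in the mesentery against 837 UMIs in the pharynx, with 0 in the tentacles and 1 in the body wall. Its pharynx level was 304 CPM (284 to 325), and the mesentery level was at least 158-fold lower when its 0 is set to 3 UMIs per library, which equals 1.92 CPM. NVE23940 had 357 UMIs in the pharynx and 0 in each of the other 3 tissues. Its pharynx level was 130 CPM (117 to 144), and the mesentery level was at least 67.5-fold lower by the same floor. The pharynx models were thus counted in 1 tissue almost without exception. Both HE_PARLI models were compared in the same tissues and stood on opposite sides, NVE21084 in the mesentery and NVE23940 in the pharynx.

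**Figure D1:**
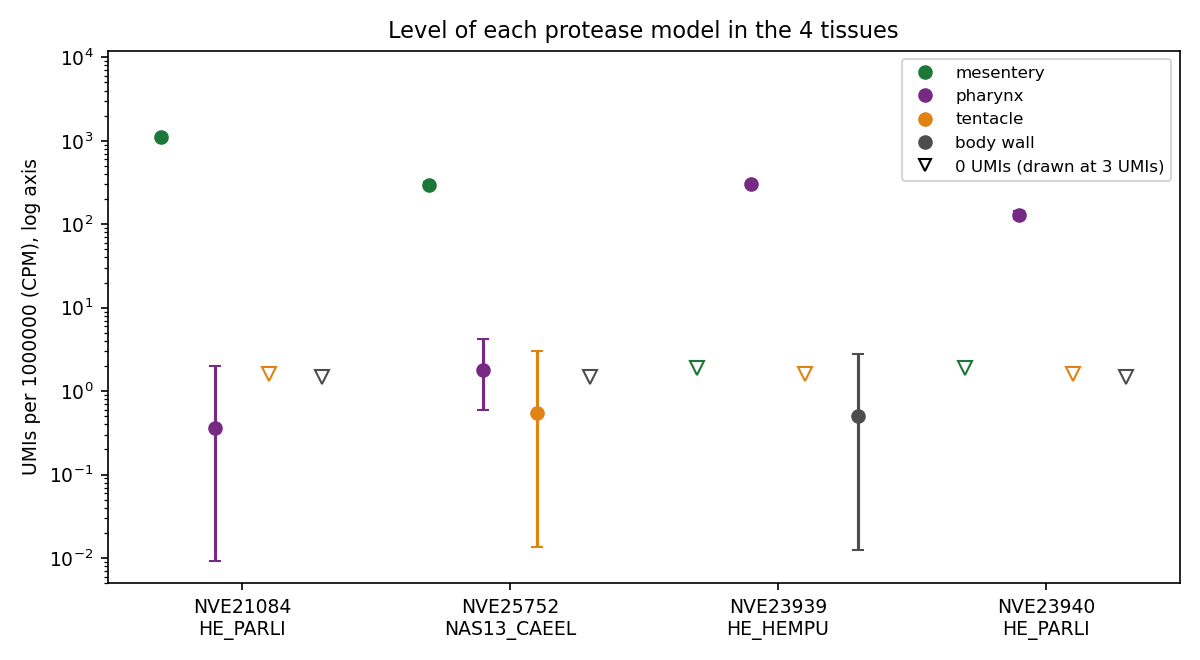
Level of each model in each tissue, in UMIs per 1000000 UMIs (CPM) on a log axis; bars are exact 95% Poisson intervals and open triangles mark tissues with 0 UMIs, drawn at 3 UMIs. NVE21084 (1117 CPM) and NVE25752 (295 CPM) stand high in the mesentery alone, NVE23939 (304 CPM) and NVE23940 (130 CPM) in the pharynx alone.

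A gene was counted as past the fold where its CPM differed at least 4-fold between mesentery and pharynx and the higher tissue had at least 50 UMIs. Of 3958 genes with enough UMIs, 202 were higher in the mesentery (5.1%) and 285 were higher in the pharynx (7.2%). All 4 models passed, 2 in each direction. They were picked with earlier results of these data known, so this count only describes them.

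Each level came from very few barcodes. In the mesentery NVE21084 had at least 1 UMI in 40 of 1357 barcodes (2.95%, 2.11 to 3.99%), of which 34 held 1 UMI and 3 held 2. The remaining 3 barcodes held 1546, 91 and 70 UMIs. The first of these alone held 88.5% of the UMIs of the model. NVE25752 was found in 24 of 1357 barcodes (1.77%, 1.14 to 2.62%), of which 19 held 1 UMI and 3 held 2. The remaining 2 barcodes held 422 and 15 UMIs, and the first held 91.3% of the model's UMIs. The mean over positive barcodes was 43.7 UMIs for NVE21084 and 19.3 for NVE25752, while the median was 1 UMI for both.

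The mesentery levels therefore turned on 1 barcode each. Without its top barcode NVE21084 had 201 UMIs, or 129 CPM (112 to 148), and the ratio of mesentery to pharynx was 356 (63.2 to 14135). Without its top barcode NVE25752 had 40 UMIs, or 25.7 CPM (18.4 to 35.0), and the mesentery level was 14.2-fold higher (5.59 to 46.0). Both stayed higher in the mesentery, at a smaller size. For NVE25752, 25 of the 40 UMIs left lay in barcodes with 1 or 2 UMIs of it, low counts from which no expression is claimed below. For NVE21084 such barcodes held 40 of the 201 UMIs. These top barcodes were deep, with 8578 UMIs over 922 genes for NVE21084 and 6494 UMIs over 961 genes for NVE25752. Both lay above the 98th percentile of depth in their library (6492 UMIs), and no doublet caller was run.

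In the pharynx the UMIs were spread over more barcodes. NVE23939 was found in 43 of 2804 barcodes (1.53%, 1.11 to 2.06%), of which 33 held 1 UMI and 1 held 2. The remaining 9 held 218, 217, 131, 67, 53, 43, 41, 24 and 8 UMIs. NVE23940 was found in 14 of 2804 barcodes (0.499%, 0.273 to 0.836%), of which 6 held 1 UMI and 1 held 3. The remaining 7 held 152, 90, 47, 23, 16, 11 and 9 UMIs. The mean over positive barcodes was 19.5 UMIs for NVE23939 and 25.5 for NVE23940, with medians of 1 and 6. The barcode with the most UMIs was the same for both and held 26.0% of the UMIs of NVE23939 and 42.6% of those of NVE23940. Without it the mesentery level was at least 117-fold lower for NVE23939 and at least 38.8-fold lower for NVE23940.

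Such dependence on 1 barcode was uncommon among genes. Of 1318 genes with at least 100 UMIs in the mesentery, 40 had 50% or more of their UMIs in 1 barcode (3.03%), and the median gene had 5.85% there. Larger shares than that of NVE21084 were seen for 9 of the 1318 genes, and larger than that of NVE25752 for 5. In the pharynx 12 of 2166 such genes had 50% or more in 1 barcode (0.554%), with a median of 2.76%. There 51 genes had a larger share than NVE23939 and 20 a larger one than NVE23940.

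**Figure D2:**
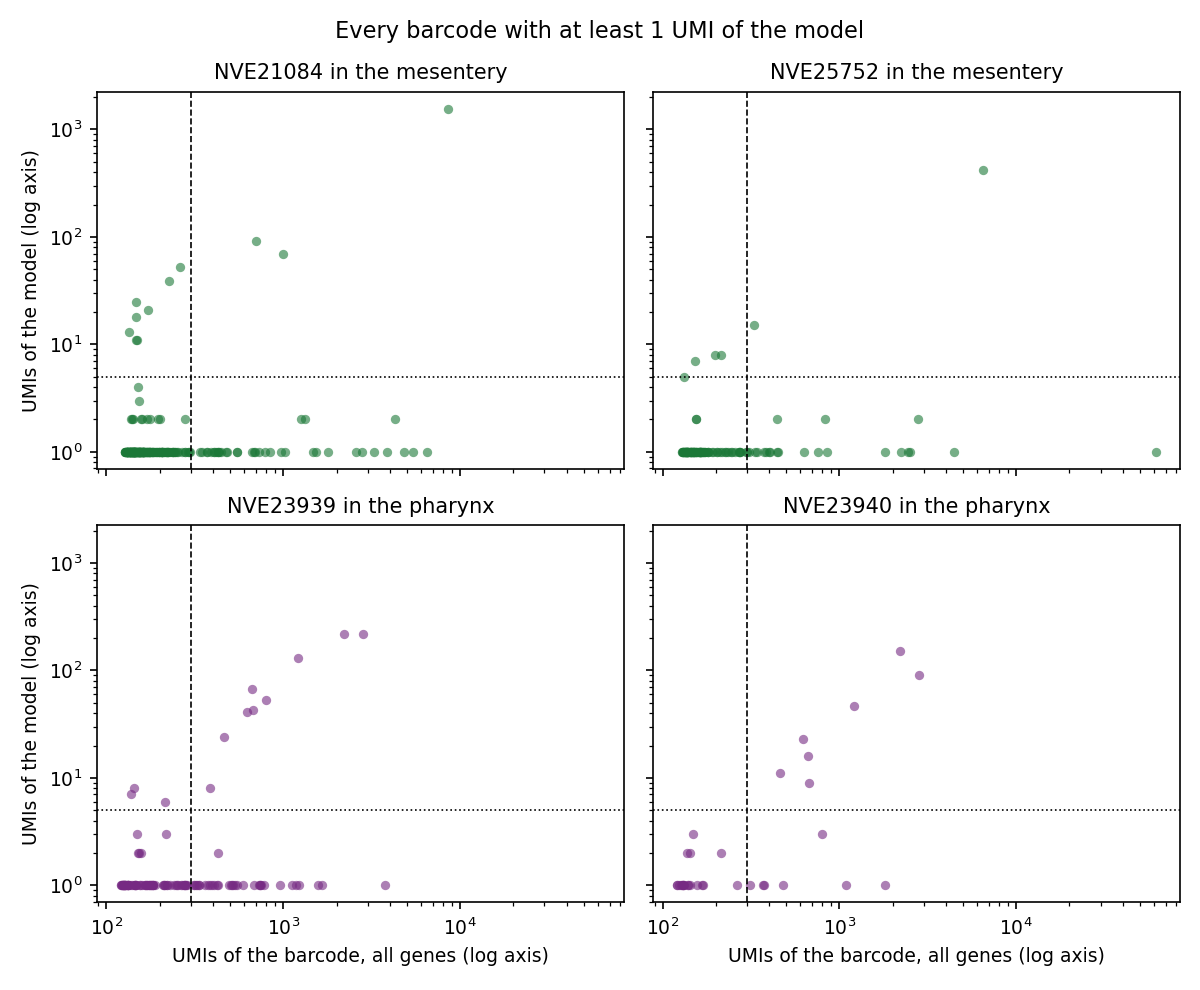
Every deposited barcode with at least 1 UMI of a model, by its UMIs over all genes (x, log axis) and its UMIs of that model (y, log axis); the dashed line marks 300 UMIs of depth and the dotted line 5 UMIs of the model. Few barcodes stand above the dotted line to the right of the dashed line: 3 for NVE21084, 2 for NVE25752, 9 for NVE23939 and 7 for NVE23940.

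Barcodes with at least 5 UMIs of a model are called rich in it here, a threshold set after the values were seen. Among kept barcodes the nearest value under it was 3 UMIs (NVE23940, 1 barcode) and the nearest above it was 8 (NVE23939). In its 3 rich barcodes NVE21084 made up 18.0%, 13.0% and 7.01% of all UMIs. In its 2 rich barcodes NVE25752 made up 6.50% and 4.56%. In the 9 rich barcodes of NVE23939 the model made up 2.09% to 10.8% of the UMIs, with a median of 6.62%, and in its 7 rich barcodes NVE23940 made up 1.34% to 6.89%. Where a model was rich, it was among the abundant transcripts of that cell.

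Barcodes with 1 or 2 UMIs of a model were also found outside the cells rich in it. The kept barcodes were clustered jointly with the 4 models left out, and 1 of the 28 clusters was digestive gland-like by its markers. In it, NVE21084 had a UMI in 6 of 33 mesentery barcodes (18.2%, 6.98 to 35.5%), and outside it in 34 of the other 1324 (2.57%, 1.79 to 3.57%). Muscle-like cells, taken here as cells that should lack digestive proteases, held it in 5 of 63 barcodes (7.94%, 2.63 to 17.6%) and never with more than 2 UMIs. Median depths were 701 UMIs in the gland-like barcodes, 525 in the muscle-like ones and 539 in all but the gland-like ones. The share outside the gland-like cluster, which includes the muscle-like barcodes, was not above the muscle-like share. That muscle-like cells lack these proteases was not tested, so the comparison cannot tell what the low counts are. No expression is claimed from them. The 2.57% lay just under the interval of the muscle-like share, but the intervals of these shares overlapped and the muscle-like share rested on 5 barcodes. Whether the low counts were at 1 even level cannot be told from this, and where they came from was not tested.

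NVE25752 had a UMI in 3 of 33 gland-like mesentery barcodes (9.09%), in 2 of 63 muscle-like ones (3.17%) and in 21 of 1324 outside the gland-like cluster (1.59%). NVE23939 had a UMI in 9 of 17 gland-like pharynx barcodes (52.9%, 27.8 to 77.0%), in 1 of 141 muscle-like ones (0.709%, 0.0180 to 3.89%) and in 34 of 2787 outside the gland-like cluster (1.22%). NVE23940 had a UMI in 8 of 17 gland-like pharynx barcodes (47.1%, 23.0 to 72.2%), in 1 of 141 muscle-like ones (0.709%) and in 6 of 2787 outside the gland-like cluster (0.215%). For these 3 models the interval of the muscle-like share held the share outside the gland-like cluster, and no kept barcode outside that cluster held more than 2 UMIs of any model. Many such barcodes fell into large unnamed clusters. In the mesentery, cluster 1 (708 barcodes) held NVE21084 in 14 barcodes and NVE25752 in 12, with 1 UMI in each. In the pharynx, cluster 0 (913 barcodes) held NVE23939 in 12, and cluster 2 (603 barcodes) held NVE23939 in 9 and NVE23940 in 4.

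Thinned to 300 UMIs per barcode, the share with a UMI was 1.45% for NVE21084, 1.01% for NVE25752, 1.03% for NVE23939 and 0.407% for NVE23940, each in its own tissue. In the mesentery 0 of 1357 barcodes held NVE23939 or NVE23940, which allows a share of up to 0.221% for each, counting a floor of 3 barcodes (exact upper limit 0.2715%). A model with no UMI in the tentacles was found in 0 of 1299 barcodes, which allows up to 0.231% by that floor (exact limit 0.284%), and one with no UMI in the body wall in 0 of 1652, which allows up to 0.182% (exact limit 0.223%). These limits concern barcodes with a UMI, not cells that express the gene.

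The pharynx models shared barcodes and the mesentery models did not. In the mesentery 0 barcodes held both NVE21084 and NVE25752, while 40 held NVE21084 and 24 held NVE25752. The product of their shares corresponds to 0.707 barcodes, so a joint count of 0 could not be told from independent detection at this depth. The 3 rich barcodes of NVE21084 had 0 UMIs of NVE25752, and the 2 rich barcodes of NVE25752 had 0 UMIs of NVE21084. In the pharynx 9 barcodes held both NVE23939 and NVE23940, where the product of the shares gives 0.215. These were 20.9% of the barcodes with NVE23939 and 64.3% of those with NVE23940. All 7 barcodes rich in NVE23940 were also rich in NVE23939. No pharynx barcode held a mesentery model together with a pharynx model (0). Only 1 pharynx barcode held NVE21084 and 3 held NVE25752. The products of the shares gave 0.00499 to 0.0460 barcodes, so this 0 could not be told from independent detection either.

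Within the pharynx pair NVE23939 was the more abundant in 8 of the 9 shared barcodes and equal in the other. The UMIs of NVE23939 and NVE23940 were 218 and 152, 217 and 90, 131 and 47, 67 and 16, 53 and 3, 43 and 9, 41 and 23, 24 and 11, and 1 and 1. The ratio of NVE23939 to NVE23940 ran between 1 and 17.7. Over the 9 barcodes rich in NVE23939 the sums were 802 and 351 UMIs, a ratio of 2.29. The identifiers are neighbours in number, but their positions and sequences were not used here, and whether reads of similar copies were split between them was not tested.

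All rich barcodes fell into the digestive gland-like cluster. The 3 rich barcodes of NVE21084, the 2 of NVE25752, the 9 of NVE23939 and the 7 of NVE23940 were all in cluster 24, as they also were in 1 cluster at Leiden resolutions 0.5 and 2. It held 50 barcodes, 33 from the mesentery and 17 from the pharynx, with 0 from the tentacles and 0 from the body wall. Of its leading genes, 16 of the first 30 and 8 of the first 10 were on the marker list for that type. Its first 6 were CTRB1_MOUSE (NVE9071), CTRB_BOVIN (NVE23810) and CTR2_CANFA (NVE14238), all chymotrypsinogens, CBPA4_HUMAN (NVE6110, a carboxypeptidase), PLMN_MOUSE (NVE21873, plasminogen) and TYR3_CAEEL (NVE11693, a tyrosinase). CBPA4_HUMAN was detected in 78% of the 50 barcodes, and the other leading genes named here in 20% to 48%, so most of them marked only part of the cluster.

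The cluster held nearly all UMIs of the models but only some of its barcodes carried each. It accounted for 97.9% of the mesentery UMIs of NVE21084, found in 6 of its 33 mesentery barcodes, and for 94.8% of those of NVE25752, found in 3 of 33. It accounted for 95.8% of the pharynx UMIs of NVE23939, found in 9 of its 17 pharynx barcodes, and for 98.3% of those of NVE23940, found in 8 of 17. The level within it was 29693 CPM for NVE21084, 7606 CPM for NVE25752, 46810 CPM for NVE23939 and 20487 CPM for NVE23940.

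Rich barcodes differed in how much of the digestive gland list they carried. The listed genes took 20.5% to 26.7% of the UMIs in the 3 barcodes rich in NVE21084 and 12.2% to 28.8% in the 9 rich in NVE23939. In each of those 9 most of that share was 1 listed gene, CPP1_ACRMI (NVE1213), which alone took 11.7% to 21.6%. In the 2 barcodes rich in NVE25752 the listed genes took only 1.82% and 2.74%. Over the 1352 mesentery barcodes not rich in a model the median was 0.507% and the 95th percentile 3.72%, and 155 of them were at or above 1.82%, so the NVE25752 barcodes lay within that range. Over the 2795 pharynx barcodes not rich in a model the median was 0.133% and the 95th percentile 0.674%. Still, 14 of them were at or above the 12.2% of the lowest barcode rich in NVE23939, and the highest was at 47.1%. A high share of the list was thus not particular to the barcodes rich in NVE23939. The 2 barcodes rich in NVE25752 held 8.51% and 8.33% of their UMIs in TYR3_CAEEL, a leading gene of the cluster that is not on the list.

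Barcodes of the gland-like cluster carried different metalloproteases. Of 33 mesentery barcodes, 23 held at least 5 UMIs of a matrixin or astacin model and 10 held none at that level. The most abundant one was NVE1814 (HE_HEMPU) in 10 barcodes, NVE24828 (NAS4_CAEEL) in 5, NVE21084 in 3, NVE7504 (MMP19_MOUSE) in 3 and NVE25752 in 2. Of 17 pharynx barcodes, 12 held at least 5 UMIs of one, led by NVE23939 in 9, NVE7504 in 2 and NVE24828 in 1. Matrixins and astacins together took a median of 8.85% of the UMIs of a mesentery barcode and 5.19% of those of a pharynx barcode. The highest value was 37.0% in the mesentery and 16.9% in the pharynx.

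Other metalloproteases in the rich barcodes were counted at the same level of 5 UMIs. All 3 barcodes rich in NVE21084 also had at least 5 UMIs of NVE14988, another NAS13_CAEEL model, and 0 of the 3 had so many of NVE1814 or NVE24828, while 1 of the 3 had so many of NVE7504. Both barcodes rich in NVE25752 had at least 5 UMIs of NVE7504, named for a matrix metalloprotease, and 0 of 2 had so many of NVE14988, NVE1814 or NVE24828. Of the 9 pharynx barcodes rich in NVE23939, 7 were rich in NVE23940 and 0 had at least 5 UMIs of NVE7504, NVE24828 or the third HE_PARLI model, NVE23628. Over all 33 mesentery barcodes of the cluster, 10 had at least 5 UMIs of NVE1814, 9 of NVE7504, 5 of NVE14988 and 5 of NVE24828. Over its 17 pharynx barcodes, 2 had so many of NVE7504, 2 of NVE23628 and 1 of NVE24828. The 3, 2 and 9 rich barcodes are too few to set the counts of 0 apart from these shares. With 1 library each, all of these are counts of single cells and not of animals.

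**Figure D3:**
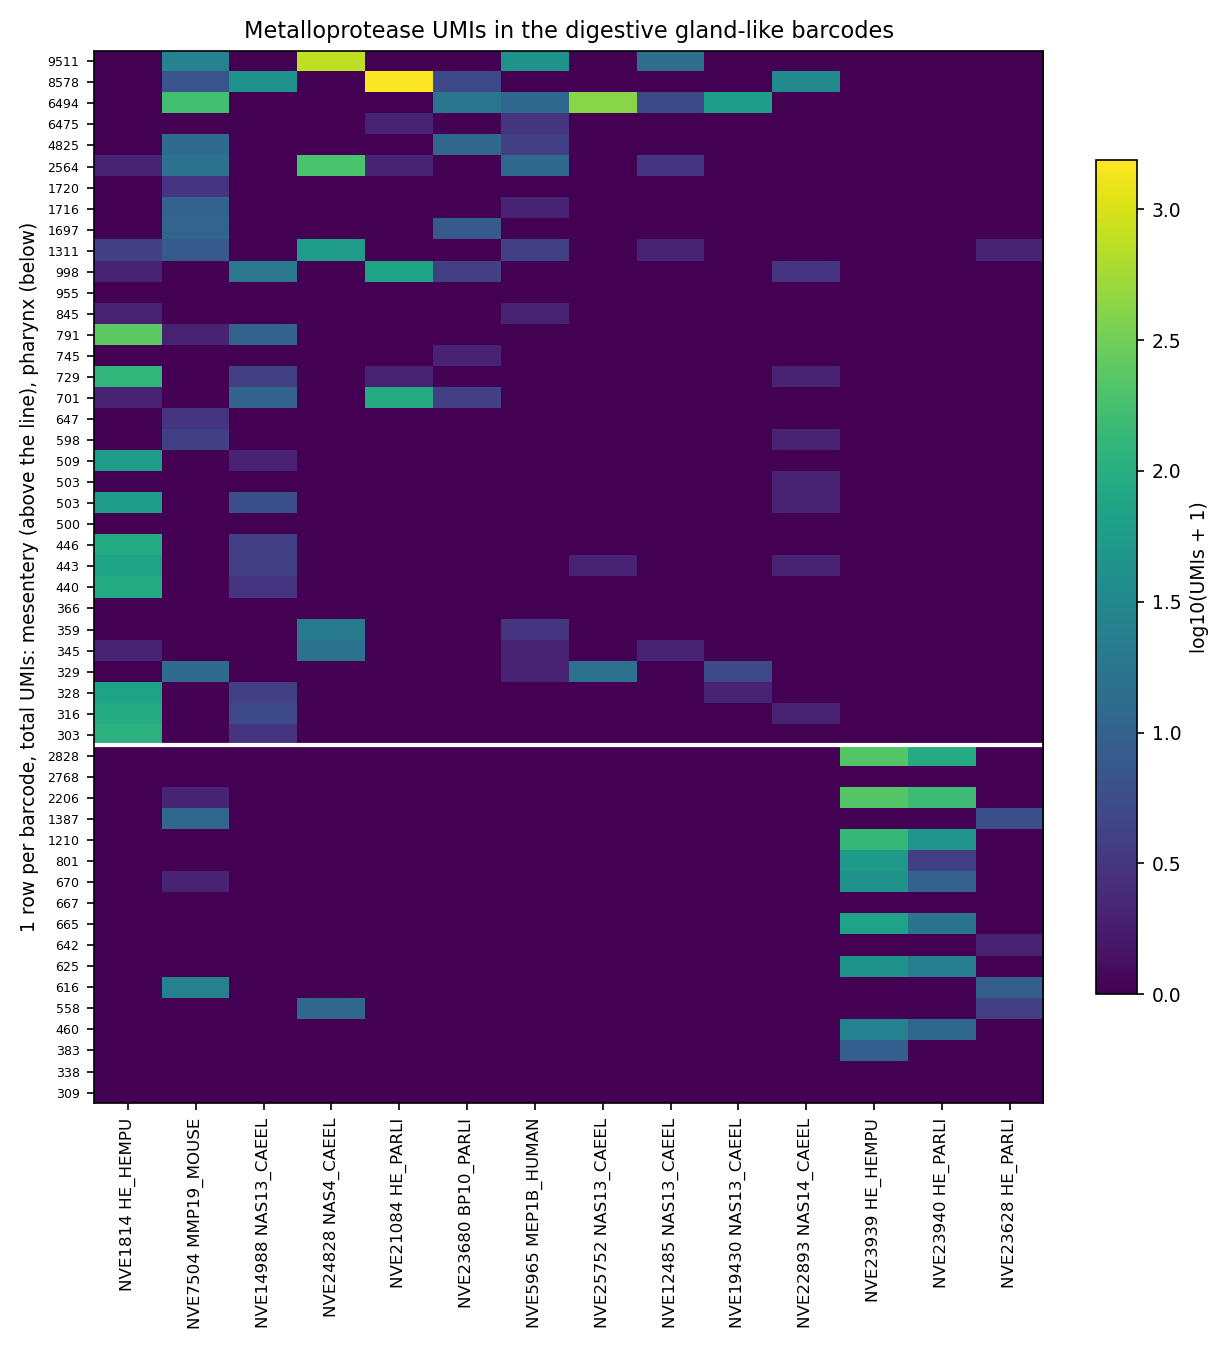
UMIs of 14 matrixin and astacin models (columns) in the 50 barcodes of the digestive gland-like cluster (rows, labelled with their total UMIs), as log10(UMIs + 1); mesentery barcodes stand above the white line and pharynx barcodes below it. NVE21084 and NVE25752 are bright in different mesentery rows, and NVE23939 and NVE23940 are bright in the same pharynx rows.

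The genes that varied most like each model were sought over the kept barcodes of its own tissue by Pearson's r of log-scaled UMIs, as a description. Only genes with at least 30 UMIs and 20 positive barcodes there were ranked. These r share each library's depth, and for the mesentery models they rest on few barcodes. For NVE21084 (1357 barcodes, 3228 genes) the 6 highest were CHIT1_MOUSE (NVE2987, a chitinase) at 0.317, CTRB_BOVIN (NVE9125) at 0.295, NAS13_CAEEL (NVE14988) at 0.262, CPP1_ACRMI (NVE20133, a coral protein with CUB and peptidase domains) at 0.251, the unnamed NVE22684 at 0.249 and CBPA2_HUMAN (NVE18687) at 0.238. All 6 were detected in all 3 rich barcodes. CHIT1_MOUSE was itself at 176 CPM in the mesentery and 1.45 CPM in the pharynx, with 79.6% of its mesentery UMIs in those 3 barcodes.

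For NVE25752 the 6 highest were TYR3_CAEEL (NVE11693) at 0.279, MMP19_MOUSE (NVE7504) at 0.210, SC23A_HUMAN (NVE986, a coat protein of vesicles leaving the endoplasmic reticulum) at 0.203, RHEB_HUMAN (NVE18061) at 0.156, ZNRF1_BOVIN (NVE24617) at 0.143 and ERGI2_DANRE (NVE2186) at 0.140. TYR3_CAEEL had 90.0% and MMP19_MOUSE 54.8% of their mesentery UMIs in the 2 rich barcodes. RHEB_HUMAN, ZNRF1_BOVIN and ERGI2_DANRE had 3.33% or less there, and only 2 of the 6 stayed among the 6 without the top barcode.

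For NVE23939 (2804 barcodes, 5307 genes) the 6 highest were AGUA_PSEA8 (NVE20608, named for a bacterial agmatine deiminase) at 0.528, CPP1_ACRMI (NVE1213) at 0.523, OVCH1_HUMAN (NVE1216, an ovochymase) at 0.501, CBPA4_HUMAN (NVE6110) at 0.490, KLKB1_RAT (NVE15608, plasma kallikrein) at 0.468 and the unnamed NVE21104 at 0.345. For NVE23940 the highest was NVE23939 at 0.673, followed by AGUA_PSEA8 at 0.586, KLKB1_RAT at 0.578, OVCH1_HUMAN at 0.569, CPP1_ACRMI (NVE1213) at 0.563 and CBPA4_HUMAN at 0.535. NVE23940 was not ranked for NVE23939, since its 14 positive barcodes were under the minimum of 20, though their r was the same 0.673. The lists of 6 of the pharynx models had 5 genes in common, and every other pair of lists had 0. AGUA_PSEA8 was at 0 CPM in the mesentery and 50.1 CPM in the pharynx, and CPP1_ACRMI (NVE1213) was at 3.20 CPM in the mesentery and 583 CPM in the pharynx, the same direction as the models. CBPA4_HUMAN went the other way, at 530 CPM in the mesentery and 33.8 CPM in the pharynx. KLKB1_RAT (279 CPM in the mesentery, 89.3 CPM in the pharynx) and OVCH1_HUMAN (134 CPM in the mesentery, 38.1 CPM in the pharynx) were also higher in the mesentery.

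Single barcodes show what the rich cells carried besides the models, and these genes were chosen after their values were seen. The barcode with 1546 UMIs of NVE21084 also held 790 UMIs of PLMN_MOUSE (NVE21873), 495 of the unnamed NVE23425, 246 of CTRB_BOVIN (NVE4653), 235 of CPP1_ACRMI (NVE20133) and 202 of CHIT1_MOUSE. PLMN_MOUSE took 8.99% to 11.9% of the UMIs in all 3 rich barcodes. The barcode with 422 UMIs of NVE25752 held 541 of TYR3_CAEEL, 272 of the unnamed NVE19431, 166 of MMP19_MOUSE and 58 of NVE19430, another NAS13_CAEEL model. In the 9 pharynx barcodes rich in NVE23939, CPP1_ACRMI (NVE1213) had 46 to 403 UMIs, or 11.7% to 21.6% of the barcode, more than NVE23939 itself.

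The other members of the families were counted by name. The matrixin list had 28 genes, of which 23 were detected and 9 had at least 50 UMIs in the mesentery or pharynx; 3 were higher in the mesentery past the fold, 3 higher in the pharynx and 3 neither. Without the models, 2 of 6 were higher in the mesentery and 1 was higher in the pharynx. The astacin list had 84 genes, of which 73 were detected and 16 had enough UMIs; 6 were higher in the mesentery past the fold, 1 higher in the pharynx and 9 neither, and without NVE25752 the counts were 5 and 1 of 15. Over all 3958 genes with enough UMIs, 5.1% were higher in the mesentery past the fold and 7.2% higher in the pharynx. The median log2 ratio of mesentery to pharynx was 0.028 for the matrixins and -0.0026 for the astacins, against -0.17 over all 3958 genes. Without the models the medians were 0.17 for the matrixins and -0.14 for the astacins.

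A pair of matrixins named for a membrane-bound matrix metalloprotease was counted in all 4 tissues. NVE22473 (MMP17_MOUSE) was at 694 CPM in the mesentery and 681 CPM in the pharynx, and NVE22474 (MMP17_HUMAN) at 415 CPM in the mesentery and 335 CPM in the pharynx, so neither was past the fold. NVE1814, another HE_HEMPU model, was at 823 CPM in the mesentery and 0 in the pharynx, at least 756-fold higher, and at 360 CPM in the body wall, where none of the 4 models was above 1 UMI. It was found in 232 mesentery barcodes, and its top barcode held 19.0% of its UMIs, against 88.5% for NVE21084. MMP19_MOUSE (NVE7504) was 14.7-fold higher in the mesentery (10.5 to 21.0), and MMP9_CANFA (NVE11979) was 12.0-fold lower there, at 4.48 CPM in the mesentery and 53.7 CPM in the pharynx.

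Among the astacins NVE24828 (NAS4_CAEEL) was the most abundant, at 847 CPM in the mesentery and 5.44 CPM in the pharynx, and its top barcode held 58.4% of its UMIs. A further 4 astacins were past the fold in the mesentery besides NVE25752, and they are named after their values were seen. NVE5965 (MEP1B_HUMAN, a meprin) was at 98.5 CPM in the mesentery and 0.726 CPM in the pharynx. NVE14988 (NAS13_CAEEL) was at 79.9 CPM in the mesentery and 1.09 CPM in the pharynx. NVE23680 (BP10_PARLI, a sea urchin blastula protease) was at 76.7 CPM in the mesentery and 0 CPM in the pharynx, and NVE19430 (NAS13_CAEEL) at 42.9 CPM in the mesentery and 0 CPM in the pharynx. The tolloid-like models, named for proteases that process procollagen, showed no such excess in the mesentery. TLL1_XENLA (NVE1234) was at 60.1 CPM in the mesentery and 66.1 CPM in the pharynx, and TLL2_XENLA (NVE19545) at 38.4 CPM in the mesentery and 50.4 CPM in the pharynx. The astacin past the fold in the pharynx, also named after its value was seen, was TLL1_DANRE (NVE1235), at 8.95 CPM in the mesentery and 83.1 CPM in the pharynx. MEP1B_RAT (NVE2965) was a body wall gene, at 0 CPM in the mesentery, 0.363 CPM in the pharynx and 293 CPM in the body wall.

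The reprolysin list (ADAM and ADAMTS proteases, the third metzincin family looked at) had 44 genes and 5 with enough UMIs. Of these, 0 were higher in the mesentery past the fold and 3 were higher in the pharynx, against 5.1% and 7.2% over all genes with enough UMIs. Among the 3 was ATS16_HUMAN (NVE5882) at 1.28 CPM in the mesentery and 45.7 CPM in the pharynx. The inhibitors of metalloproteases on the list, TIMPs, RECK and an alpha-2-macroglobulin, had 6 of 8 genes detected and none with 50 UMIs in the mesentery or pharynx (0). TIMP3_CHICK (NVE11882) was at 2.56 CPM in the mesentery, 10.2 CPM in the pharynx and 139 CPM in the body wall, and RECK_HUMAN (NVE18038) at 28.8 CPM in the mesentery, 13.1 CPM in the pharynx and 110 CPM in the body wall. Summed over the list, inhibitors were at 64.6 CPM in the mesentery, 34.8 CPM in the pharynx, 11.9 CPM in the tentacles and 301 CPM in the body wall, where the 4 models together had 1 UMI. The families as a whole were not absent there. In the same order of tissues the matrixin list summed to 3311, 1585, 529 and 1508 CPM. The astacin list summed to 1927, 621, 417 and 956 CPM.

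**Figure D4:**
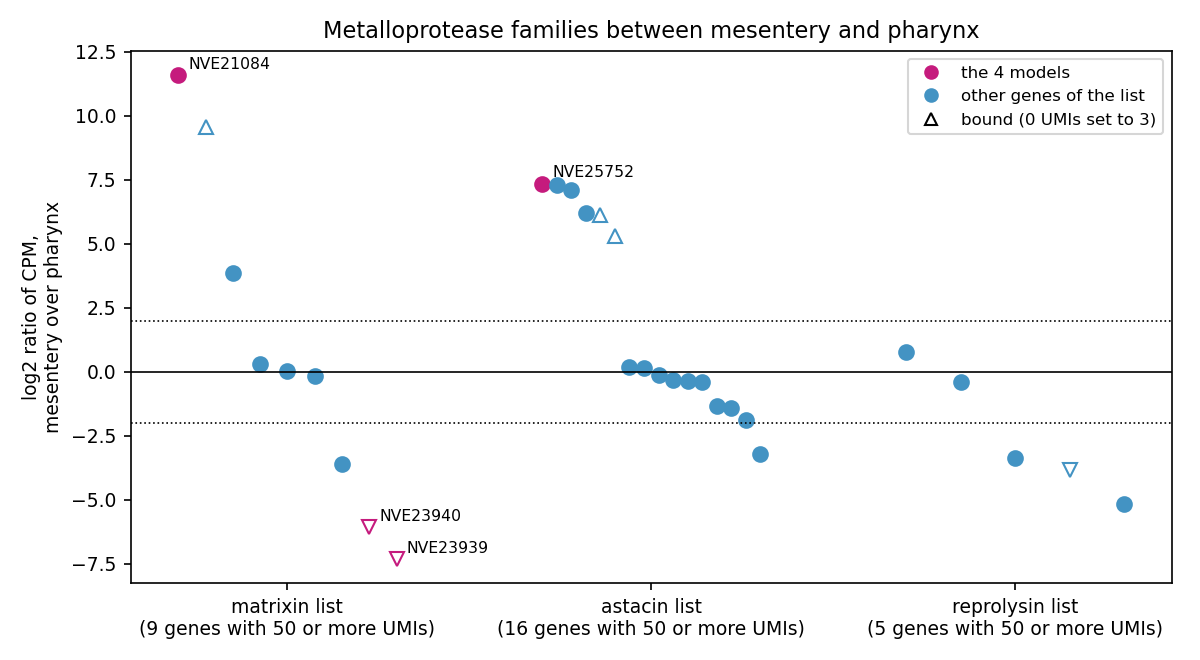
The log2 ratio of CPM, mesentery over pharynx, for the genes of each metalloprotease list with at least 50 UMIs in either tissue; points mark ratios, triangles mark bounds with 0 UMIs set to 3, and dotted lines mark the 4-fold threshold. The 4 models (pink) stand at the top and at the bottom of their lists, while the matrixins and astacins without them lie on both sides of 0. NVE25752, at 163-fold, lies close to NVE24828, at 156-fold, and is at 14.2-fold without its top barcode.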

How the data were processed

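The authors deposited raw UMI counts for every pair of gene model and barcode. Per the submitters' processing notes they used Cell Ranger 2.1.0. Neither genome build nor alignment settings are given in the sources used here. The RefSeq gene table matched 0 of the 4 identifiers, so no position or sequence is printed. Members and lists were chosen with earlier results of these data known.

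Barcodes with at least 300 UMIs were kept, 7112 in all, from 7000 deposited in each of 4 libraries. A level is a gene's summed UMIs over all UMIs of the kept barcodes, per 1000000 (CPM). Intervals (95%) are exact Poisson for levels, exact Poisson ratio for ratios and Clopper-Pearson for shares; a share of 0 is also given as the share of 3 barcodes. They cover counting error only. A count of 0 was set to 3 UMIs per library in ratios. With 1 library per tissue no test was run. A call needed a 4-fold ratio and 50 UMIs in the higher tissue; this step was tested on simulated data.

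Clustering used scanpy 1.11.5 (UMIs scaled to 10000 per barcode, log-transformed, 2000 variable genes, 30 components, 15 neighbours, Leiden resolution 1). A cluster was named when at least 3 markers were among its 30 leading genes and at least 2 among the first 10. The markers also had to come from at least 2 name starts, with no other list ahead in either count. Cluster 20 (epidermis list, 5 and 2 markers) and cluster 25 (digestive gland list, 4 and 3 markers) met both counts but not the full rule. They stayed unnamed, and the 30 mesentery and 9 pharynx barcodes of cluster 25 count as outside the gland-like cluster. Genes named by rule were the members, the 6 genes with the highest Pearson's r to each (at least 30 UMIs and 20 barcodes), the 6 most abundant genes of each list of which some are printed, and the 6 leading genes of the gland-like cluster; those of clusters 0, 1 and 2 were left out, since no barcode there was rich in a model. NVE5965, NVE19430, NVE23680, NVE1235, NVE23628 and the genes given for single barcodes were named after their values were seen. The reprolysin list matched 72 names by their starts and was cut to 44 after the names were seen. Doublets were not called; barcodes above the 98th percentile of depth were left out as an alternative.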

Additional observations from a re-analysis of the deposited data

Results flagged for a closer look

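Barcodes with fewer than 300 UMIs, which enter none of the main comparisons, also held the models, each only in its own tissue but for 1 UMI of NVE23939 in the tentacles. NVE21084 had 394 UMIs in 196 of 5643 such mesentery barcodes, and 8 of them held 11 to 53 UMIs in barcodes of 134 to 261 UMIs (7.43% to 20.3% of the barcode). NVE25752 had 115 UMIs in 89 of these mesentery barcodes, 4 of which held 5 to 8 UMIs. NVE23939 had 100 UMIs in 75 of 4196 such pharynx barcodes, 3 of which held 6 to 8 UMIs, and NVE23940 had 25 UMIs in 20 with at most 3 in any.

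The shallow barcodes with at least 5 UMIs of a model carried some of the genes named beside the deep ones too. PLMN_MOUSE (NVE21873) was found in 8 of 8 of those rich in NVE21084, at 1.49% to 15.8% of their UMIs, and TYR3_CAEEL (NVE11693) in 4 of 4 of those rich in NVE25752. CPP1_ACRMI (NVE1213) was found in 3 of 3 of those rich in NVE23939. Other such genes were missing from some of them. NVE14988 was in 5 of 8 for NVE21084, NVE19430 in 2 of 4 for NVE25752, and AGUA_PSEA8 (NVE20608) in 2 of 3 for NVE23939. The share of other shallow barcodes with these genes is not given here. Both pharynx models were in 7 shallow barcodes and both mesentery models in 2.

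Outside the rich barcodes the models were higher among shallow barcodes than among kept ones. NVE21084 was at 213 CPM in shallow barcodes (185 to 245) and 25.7 CPM in kept ones (18.4 to 35.1). NVE23939 was at 106 CPM in shallow barcodes (84.1 to 132) and 12.7 CPM in kept ones (8.88 to 17.7). What share of these UMIs came from free RNA was not tested.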

How the results depend on the processing

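No paired analysis was possible because each tissue has 1 library. Of 106 alternative values, 64 stayed within the main value's interval or within 1.5 times its count and 42 moved. Only the ratios have a direction, and no ratio changed it. For NVE23939 and NVE23940 this was largely fixed, as the deposited mesentery barcodes held 0 UMIs of either. Leaving out a model's top barcode was chosen after seeing the data. The members' levels rest on 2 to 9 rich cells per model, from 1 library each.

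The log2 ratio of mesentery to pharynx (11.59 for NVE21084, 7.35 for NVE25752, -7.31 for NVE23939 and -6.08 for NVE23940, the negative ones being bounds) moved under several settings. Without barcodes above the 98th percentile of depth it was at least 6.96 for NVE21084 and was 4.59 for NVE25752. The 6.96 is a bound too, not a measured ratio. The only pharynx UMI of NVE21084 lay in a barcode of 7097 UMIs, above the pharynx percentile of 4791 UMIs. That setting left the model no pharynx UMI, so the floor was used. Without the top barcode it was 8.48 for NVE21084, 3.82 for NVE25752, -6.87 for NVE23939 and -5.28 for NVE23940. NVE23939 was at -7.44 with at least 200 UMIs per barcode, -7.81 over all deposited barcodes and -7.07 as a mean over barcodes; NVE23940 was at -6.52 over all barcodes and -5.56 as a mean over barcodes.

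Requiring 2 UMIs, the share of barcodes was 0.442% for NVE21084, 0.369% for NVE25752 and 0.357% for NVE23939; thinned to 300 UMIs these were 1.45%, 1.01% and 1.03%. Mean UMIs per positive barcode with at least 200 UMIs of depth were 24.7, 12.1, 13.5 and 22.5 for NVE21084, NVE25752, NVE23939 and NVE23940. With at least 500 UMIs they were 66.7, 36.3, 30.3 and 38.0, and without the top barcode 5.15, 1.74, 14.7 and 15.8. Without barcodes above the 98th percentile they were 5.15 for NVE21084 and 1.77 for NVE25752. With at least 200 UMIs, 1 barcode held both NVE21084 and NVE25752.

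Of the 6 genes most like NVE21084, 2 stayed among the 6 by detection and 3 with at least 500 UMIs. Of those most like NVE25752, 2 stayed under each of these and without the top barcode. Genes past the fold numbered 338 in the mesentery and 784 in the pharynx at a fold of 2, 147 in the pharynx at a fold of 8, and 326 in the mesentery and 538 in the pharynx with at least 20 UMIs.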
